A study of Mus musculus with 12 samples.

Results

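Perineuronal matrix genes were followed in dorsal root ganglia, the clusters of sensory neuron cell bodies beside the spinal cord. The set was chosen by gene name and held 9 of the 54532 genes in the count table: the 4 link proteins Hapln1, Hapln2, Hapln3 and Hapln4, the 4 lecticans Acan, Bcan, Ncan and Vcan, and the tenascin Tnr. All 9 were in the table, and all 9 were among the 17002 genes that passed the filter on low counts. The set was taken up with the difference between the genotypes already known, so the differences of these 9 genes between the groups are a description and support nothing by themselves.

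The samples were 12 libraries of total RNA from ganglia of C57BL/6 mice, each with a count of reads per gene. The 6 control libraries carried the genotype label CDH5-Cre, a recombinase driven by the promoter of the endothelial cadherin gene. The 6 DAAO libraries carried the genotype label DAAO-TGCdh5; DAAO stands for D-amino acid oxidase, which makes hydrogen peroxide when it oxidises D-amino acids. D-alanine, a substrate of that enzyme, was given to both groups, so no library shows the ganglia without it. The genotype label of the DAAO group does not name Cre, which stands in the sample titles of both groups, and the labels used here give neither the age of the mice nor how many mice a library holds. The comparison sets the ganglion transcripts of these genotypes against each other.

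In the nervous system, lecticans are large chondroitin sulfate proteoglycans that bind hyaluronan, a long sugar polymer, through their first globular domain. Link proteins hold that bond in place, and tenascin-R crosslinks the far ends of the lecticans. The same kinds of molecule build the perineuronal nets around many fast-firing neurons of the brain and spinal cord, and the matrix at the nodes of Ranvier of myelinated axons.

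The libraries held between 13227518 and 23884927 counts. Mitochondrial transcripts took from 3.32% to 7.65% of them, with the highest shares in control 2 (7.44%) and control 6 (7.65%). In 5 libraries, 2 control and 3 DAAO, both Xist and the sum of 4 genes on the Y chromosome exceeded 10 CPM (here counts relative to the library's total alone). Thus n = 6 counts libraries and may not count animals. Sensory neuron markers were present in every library, as in Calca at 1537 ± 316 CPM in controls and 1519 ± 218 in DAAO (mean ± SD, n = 6). In whole ganglia, fewer cells of a type and less RNA per cell cannot be told apart.

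In the mouse genome the link proteins and lecticans sit as 4 neighbouring pairs (build GRCm38). On chromosome 8, Hapln4 (70083457 to 70090862, plus strand) and Ncan (70093085 to 70120873, minus strand) have their 3' ends facing each other with 2222 bases between them. On chromosome 13, Hapln1 (89539796 to 89611652, plus strand) and Vcan (89655312 to 89742509, minus strand) face each other in the same way over 43659 bases. On chromosome 7, Acan (79053483 to 79115099, plus strand) ends 2 bases before the 3' end of Hapln3 (79115102 to 79131018, minus strand). Bcan (87987531 to 88000230) and Hapln2 (88021750 to 88027583) lie in tandem on the minus strand of chromosome 3, 21519 bases apart. No other gene of the table lay wholly between the partners of any of the 4 pairs. Tnr lies alone on chromosome 1 (159523769 to 159931729, plus strand). Hapln2, Hapln3, Hapln4, Acan and Bcan overlapped no other gene of the table. Gm8546 (opposite strand, 49 counts over all libraries) overlapped Hapln1, and Gm4117 (opposite strand, 416 counts) overlapped Vcan. Gm16318, with no count, also overlapped Vcan, and Mir7066, with no count, lay within Ncan. Tnr overlapped Gm10530 and Gm37731 on its own strand (70 and 25 counts) and Gm38039, with no count. Whether counting used strand is unknown here, so reads from an overlapping gene on the other strand may be among those of Hapln1 and Vcan.

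Compared per gene length, brevican and Hapln4 led the set in controls. Mean levels, in CPM per kilobase of the length given in the table, were 22.0 ± 6.06 for Bcan, 12.3 ± 2.17 for Hapln4 and 5.02 ± 1.28 for Hapln1 (SD, n = 6). Hapln2 followed at 4.12 ± 5.37, Tnr at 2.28 ± 0.876, Ncan at 1.88 ± 0.315 and Vcan at 1.22 ± 0.359. The last places were those of Hapln3 at 0.713 ± 0.408 and Acan, aggrecan, at 0.257 ± 0.191. Neighbours in this order overlapped in 7 of 8 cases; the exception was Hapln4, whose lowest control library (9.29) stood above the highest of Hapln1 (6.98).

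In DAAO the order was the same except that Hapln2 (3.09 ± 2.82) stood a place above Hapln1 (3.06 ± 1.26), a gap far inside their spread. Hapln4 stood at 5.56 ± 0.844 CPM per kilobase there and Bcan at 17.3 ± 3.09. The ranges of these leading genes overlapped in controls and not in DAAO, where the lowest Bcan library (13.5) lay above the highest Hapln4 library (6.42). Acan was again last at 0.0875 ± 0.0573.

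**Figure D1:**
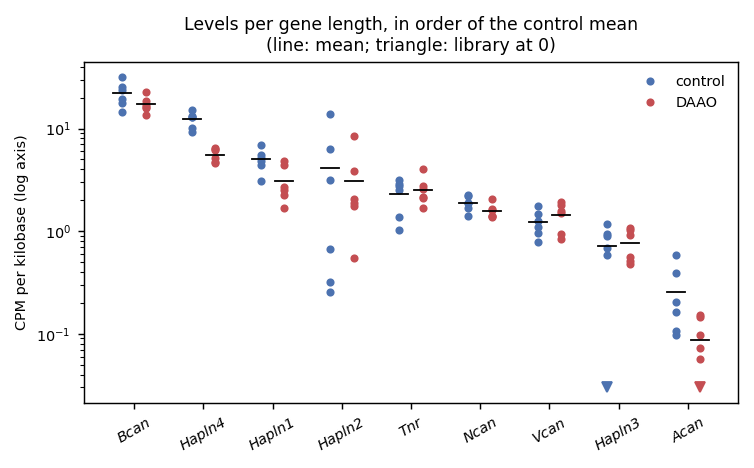
Levels per gene length of the 9 genes in each library (y axis, CPM per kilobase, log scale), in order of the control mean, with controls in blue, DAAO in red, a line at each mean and a triangle for a library at 0. Bcan is highest in both groups and Acan lowest, and the 2 groups of Hapln4 points do not overlap.

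Hapln4 was the member of the set whose groups stood apart. Hapln4 encodes a link protein of perineuronal nets of the central nervous system (ENSMUSG00000007594). Its CPM ran from 36.4 to 59.6 in the 6 control libraries, with a median of 50.7. In the DAAO libraries it ran from 18.0 to 25.2, with a median of 22.3. Every DAAO library thus lay below every control library, and the libraries of each group lay close together, with a coefficient of variation of 17.7% in controls and 15.2% in DAAO. The fitted level in DAAO was 0.454 times that in controls, or -1.14 ± 0.15 (SE) as a log2 fold change. Hapln4 was the 1 gene of the 9 called by edgeR's quasi-likelihood test at an adjusted p under 0.05 (0.000926 over all genes), where 0.753% of all genes tested were called and 0.247% were called lower. With an unadjusted p under 0.05 by that test there were 3 of the 9, where 10.3% of all genes tested had one. Hapln4 was also the 1 gene of the 9 whose groups did not overlap, which held for 1.45% of all genes tested. Since this contrast chose the set, nothing is read from these counts.

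The markers of proprioceptors and large neurons, like Hapln4, were lower in DAAO. That list too was chosen with earlier results of these data known, so the shared direction supports nothing by itself. All 9 markers had a negative log2 fold change, and none was at 0 in any library. Of the 9, 3 were called lower (Runx3, Etv1 and Whrn), where 0.247% of all genes tested were. No marker of the other 9 cell type lists was called, but several lists leaned one way. The log2 fold changes of the myelinating Schwann cell markers were negative in 8 of 8 (median -0.49, 6 with an unadjusted p under 0.05 by edgeR). Those of the skeletal muscle markers were negative in 8 of 8 (median -2.34, 0 with such a p), and those of the macrophage markers positive in 7 of 8 (median 0.82, 4 with such a p). Fibroblast and nerve sheath markers were positive in 8 of 9, other sensory neuron markers in 6 of 8 and cartilage markers in 5 of 7. Spinal cord markers were negative in 7 of 8, oligodendrocyte markers in 8 of 10 and satellite glia markers in 4 of 5. For the spinal cord and oligodendrocyte lists the direction depended on the scale. Their mean centred log2 levels were higher in DAAO: 0.36 against -0.36 in controls for spinal cord, and 0.30 against -0.30 for oligodendrocytes. The groups overlapped on that scale in both lists. For the proprioceptor and large neuron markers, the mean centred log2 level ran from 0.10 to 0.95 in controls and from -0.59 to -0.19 in DAAO. On that scale the groups did not overlap either. Their summed level, led by Nefh and Ntrk3, ran from 1760 to 3590 CPM in controls and from 1390 to 1970 in DAAO, so the groups overlapped on that scale. With their mean centred log2 level as a term in the fit, Hapln4 had a log2 fold change of -0.86 ± 0.32 (SE, edgeR adjusted p = 0.251). Over its 24 alternatives the adjusted p ran from 5.49e-10 (DESeq2) to 0.251. Over all genes, the fit with that term called 3 higher and 5 lower. Because that level did not overlap between the groups, the term and the genotype cannot be told apart there. Nothing is read from the lost call. Between libraries of 1 group, no tie of Hapln4 with the large neuron markers was called. With group means removed, Pearson's r of Hapln4 with the proprioceptor and large neuron list was 0.30 with rho = 0.25 (adjusted permutation p = 0.830 and 0.799). It was 0.51 over the 6 controls and -0.15 over the 6 DAAO libraries. The part of these cell types in the level of Hapln4 was not tested.

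Ncan, neurocan, is the neighbour of Hapln4 and a lectican made by neurons and glia. Its CPM ran from 10.1 to 16.0 in controls (median 13.5) and from 9.82 to 14.8 in DAAO (median 10.9). The groups overlapped, with 1 of 6 DAAO libraries below the lowest control, and the log2 fold change was -0.24 ± 0.17 (SE), which was not called. Beside the Hapln4 value of -1.14 this shows the neighbouring genes side by side; the difference between them was not tested.

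Hapln1, the link protein first known from cartilage and also part of perineuronal nets, had a lower mean in DAAO than in controls. It ran from 18.3 to 41.2 CPM in controls (median 29.5) and from 9.82 to 28.7 in DAAO (median 15.4). All 6 DAAO libraries lay below the control median and 4 of 6 below the lowest control. The remaining DAAO libraries, 4 and 5, stood at 28.7 and 25.8 CPM and overlapped the controls. The log2 fold change was -0.71 ± 0.25 (SE) and was not called.

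Hapln2, a link protein of oligodendrocytes found at central nodes, varied most. It ran from 0.608 to 33.2 CPM in controls (median 4.57) and from 1.30 to 20 in DAAO (median 4.67), so the control libraries spanned 54.5-fold. The groups overlapped in full, and the log2 fold change was -0.42 ± 0.96 (SE). It was 0.53 without control 2, the library with the highest value.

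Hapln3, a widely expressed link protein, ran from 0 to 4.16 CPM in controls (median 2.77) and from 1.69 to 3.80 in DAAO (median 2.60). Control 5 held no count of Hapln3 against 38 to 75 counts in the other controls. The log2 fold change of 0.10 ± 0.62 (SE) became -0.18 without control 5, and neither value was called.

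Among the lecticans, Bcan, a lectican of glia and of nets, ran from 59.1 to 128 CPM in controls (median 87.5) and from 54.8 to 91.7 in DAAO (median 67.9). In 5 of 6 DAAO libraries it lay below the control median, while the groups overlapped (log2 fold change -0.35 ± 0.17, SE, not called). Vcan, versican, a large lectican of connective tissue and nodes, ran from 11.3 to 25.6 CPM in controls (median 17.01) and from 12.2 to 28.0 in DAAO (median 22.2). Its groups overlapped too, with a log2 fold change of 0.22 ± 0.23 (SE).

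Acan, aggrecan, the main lectican of cartilage and of mature nets, was scarce, with 215 counts over the 6 controls and 69 over the 6 DAAO libraries. It ran from 0.721 to 4.33 CPM in controls (median 1.36) and from 0 to 1.14 in DAAO (median 0.637), with no count in DAAO 5. All 6 DAAO libraries lay below the control median and 3 of 6 below the lowest control. The fitted log2 fold change of -1.55 ± 0.73 (SE) was the most negative of the set but was not called, and at these counts its SE was several times that of Hapln4. Of the 10 cartilage markers 7 were tested, and 5 of these had positive log2 fold changes, with a median of 0.31 and none called. With group means removed, Acan and the cartilage list had r = 0.46 and rho = 0.48 (adjusted permutation p = 0.531 and 0.477). Within groups r was 0.09 over the controls and 0.77 over the DAAO libraries. In DAAO 5, with no count of Acan, the cartilage level (-0.36) was also the lowest of its group. The part of cartilage in the level of Acan was not tested.

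Tnr, tenascin-R, a product of oligodendrocytes and some neurons, ran from 13.1 to 40.8 CPM in controls (median 33.8) and from 21.7 to 51.4 in DAAO (median 30.2). The lowest control values were those of control 6 and control 2, at 13.1 and 17.6 CPM. The groups overlapped (log2 fold change 0.15 ± 0.27, SE, not called). Over the 9 genes the median log2 fold change was -0.35, with 6 negative and 3 positive, beside 0.00 over all genes tested, of which 49.6% were negative.

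**Figure D2:**
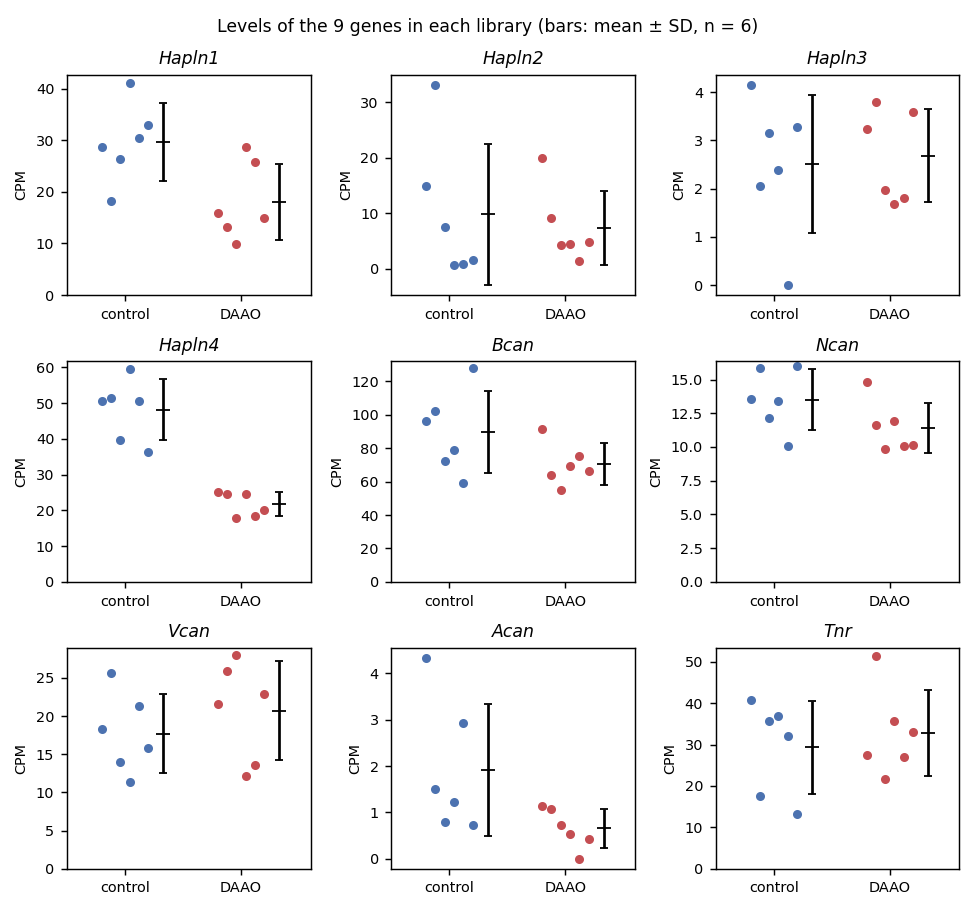
CPM of each of the 9 genes in the 6 control (blue) and 6 DAAO (red) libraries, 1 panel a gene with its own linear axis; points run from library 1 to 6 from left to right, and black bars give mean ± SD (n = 6). Hapln4 points fall into separate bands at 36.4 to 59.6 and 18.0 to 25.2 CPM, and the other 8 panels overlap.

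**Figure D3:**
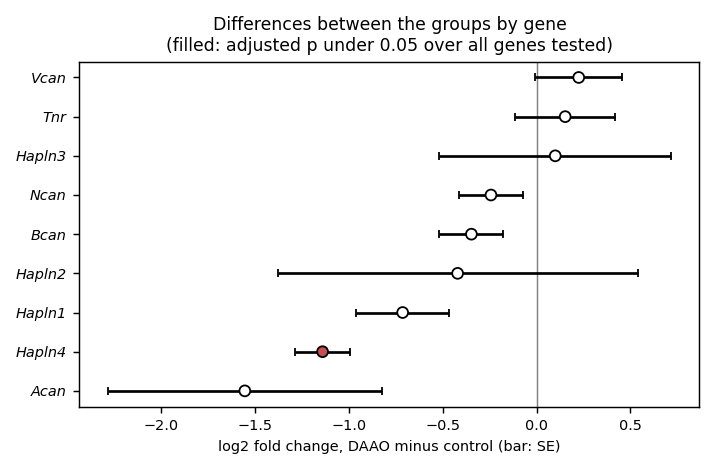
Log2 fold change of each gene, DAAO minus control (x axis), with its SE as a bar; a filled point was called at an adjusted p under 0.05 over all genes tested. The filled point is Hapln4 at -1.14, and the bars of Acan, Hapln2 and Hapln3 are the widest.

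How the genes varied between libraries of the same group does not depend on the contrast, and was tested over the 12 libraries with the group means removed from log2 CPM. Of 36 pairs of the 9 genes, 2 were called by a two-sided permutation test within groups with Benjamini-Hochberg adjustment. The first was the neighbouring pair Hapln1 and Vcan, which varied in opposite directions: r = -0.91 (permutation p = 0.00035, adjusted p = 0.0126) and rho = -0.87 (adjusted permutation p = 0.0349). It was -0.79 over the 6 controls and -0.98 over the 6 DAAO libraries, and -0.87 without DAAO 3 and DAAO 4, the libraries farthest from the median of Hapln1. Library DAAO 4, for example, was highest of its group in Hapln1 (28.7 CPM) and lowest in Vcan (12.2 CPM). DAAO 3 had the lowest Hapln1 (9.82 CPM) and the highest Vcan (28.0 CPM).

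The second pair was Bcan and Ncan, on different chromosomes, which varied together: r = 0.86 (permutation p = 0.00106, adjusted p = 0.0191) and rho = 0.80 (adjusted permutation p = 0.0349). Within groups r was 0.94 in controls and 0.76 in DAAO, and it was 0.78 without control 5 and control 6. Control 6 was highest in both genes among controls, and control 5 lowest in both. The neighbours Hapln4 and Ncan had r = 0.25 (rho = 0.35; adjusted permutation p = 0.916 and 0.722), and Hapln4 and Acan r = 0.56 (rho = 0.43; permutation p = 0.0589, adjusted p = 0.436).

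**Figure D4:**
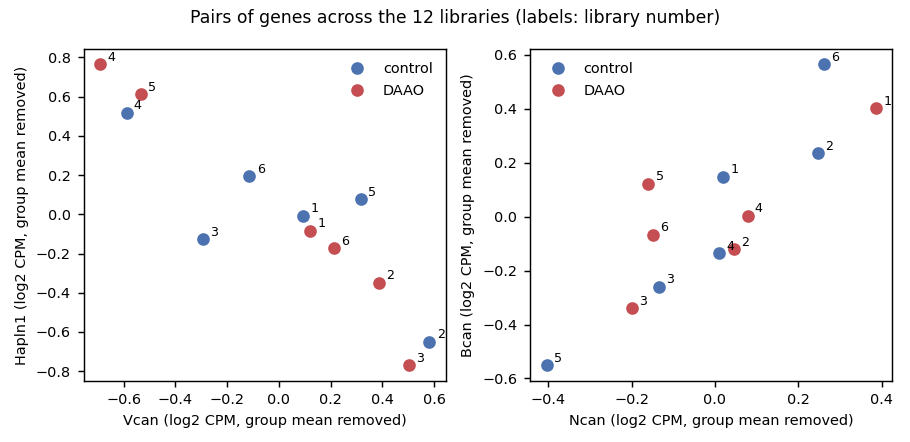
Log2 CPM with the group mean removed for Hapln1 against Vcan (left) and Bcan against Ncan (right); each point is a library with its number, control in blue and DAAO in red. The left points fall along a downward line (r = -0.91) and the right points along an upward line (r = 0.86).

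The sequences before the starts of Bcan and Ncan are shown because these lecticans varied together between libraries. They come from RefSeq on GRCm38.p6, which has the start of 8 of the 9 genes and none for Hapln4 in the table used. Each run covers bases 250 to 31 before the start, 5' to 3' on the gene's own strand (minus for both), at chr3:88000387-88000606 for Bcan and chr8:70120875-70121094 for Ncan. Capitals mark a GC box (GGGCGG on either strand) or a CCAAT box (CCAAT on either strand).
Bcan: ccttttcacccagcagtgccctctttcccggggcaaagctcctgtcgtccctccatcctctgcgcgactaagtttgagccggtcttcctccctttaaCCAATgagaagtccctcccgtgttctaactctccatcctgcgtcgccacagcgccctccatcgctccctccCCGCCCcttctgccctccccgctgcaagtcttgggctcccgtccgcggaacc
Ncan: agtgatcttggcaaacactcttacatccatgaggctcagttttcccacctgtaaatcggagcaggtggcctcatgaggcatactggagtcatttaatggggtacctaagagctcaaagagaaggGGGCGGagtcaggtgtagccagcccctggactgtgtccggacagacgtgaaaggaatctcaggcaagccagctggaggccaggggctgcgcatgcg
Both runs hold a GC box, as do 28.5% of the 32851 RefSeq windows of the same length, and Bcan also holds a CCAAT box, as do 31.0%. Bcan has a GC content of 62.7% with 15 CpG and Ncan 55.5% with 6 CpG, beside medians of 51.8% and 5 over all windows. Neither holds TATAA (19.3% of windows), TGTGGT, a core bound by RUNX factors (12.7%), AAGGTCA, a half-site of estrogen-related receptors (3.67%), or TGANTCA, a site of AP-1 factors (6.12%), on either strand. These motifs do not overlap each other in the runs shown.

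The same test set each of the 9 genes against the levels of 10 marker lists of the cell types a ganglion sample can hold, 90 pairs in all. By r, 9 pairs were called, 6 of them also by rho. Hapln2 followed the oligodendrocyte markers (r = 0.88, rho = 0.90, adjusted permutation p = 0.0183 and 0.0342). It was 0.91 over the 6 controls and 0.78 over the 6 DAAO libraries. Mobp, an oligodendrocyte myelin gene and the most abundant of that list, stood at 2097 CPM in control 2, where Hapln2 was highest, and at 11.4 in control 4, where Hapln2 was lowest. Hapln2 also followed the spinal cord neuron and astrocyte markers (r = 0.84, rho = 0.88, adjusted permutation p = 0.0425 and 0.0442) and the cartilage markers (r = 0.87, rho = 0.82, adjusted permutation p = 0.0183 and 0.0342). Of the oligodendrocyte markers, 10 of 10 were tested, Olig2 and Opalin were at 0 in some library, and the summed level ran from 329 to 3260 CPM in controls and from 465 to 1080 in DAAO. In control 4, Mal of that list stood at 198 CPM beside 11.4 for Mobp, so the sum does not track Mobp alone.

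Hapln1 went against the marker levels of 5 lists, most of all macrophages (r = -0.88, rho = -0.87, adjusted permutation p = 0.0036 and 0.0117) and fibroblasts and nerve sheath (r = -0.80, rho = -0.83, adjusted permutation p = 0.0138 and 0.0117). Its other 3 lists were cartilage, oligodendrocyte and spinal cord (r = -0.78, -0.75 and -0.70), where rho missed the threshold (adjusted permutation p = 0.0609, 0.0605 and 0.0566). Vcan followed the macrophage markers (r = 0.85, rho = 0.84, adjusted permutation p = 0.0183 and 0.0342). The macrophage list, led by C1qb and C1qa, had a summed level from 42.1 to 311 CPM in controls and from 129 to 507 in DAAO, with no marker at 0.

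No list was called for Hapln4, Hapln3, Bcan, Ncan, Acan or Tnr, and for Hapln4 r lay between -0.25 and 0.30 over the 10 lists (adjusted permutation p from 0.830 to 0.973). All 9 called pairs kept their sign without the 2 libraries farthest from the median of the list, with r from 0.54 to 0.86 in size. No pair passed the adjusted threshold in those 10 libraries, a smaller number of libraries for the same 90 tests. Hapln1 with macrophages, for example, had r = -0.88 over all 12 libraries and -0.86 without control 4 and DAAO 4. With the oligodendrocyte level as a term, the log2 fold change of Hapln4 was -1.15 ± 0.15 (SE), and with the fibroblast level -1.11 ± 0.16. What the tissue makeup of each library adds to the levels of Hapln1, Hapln2 and Vcan was not tested beyond these values.

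**Figure D5:**
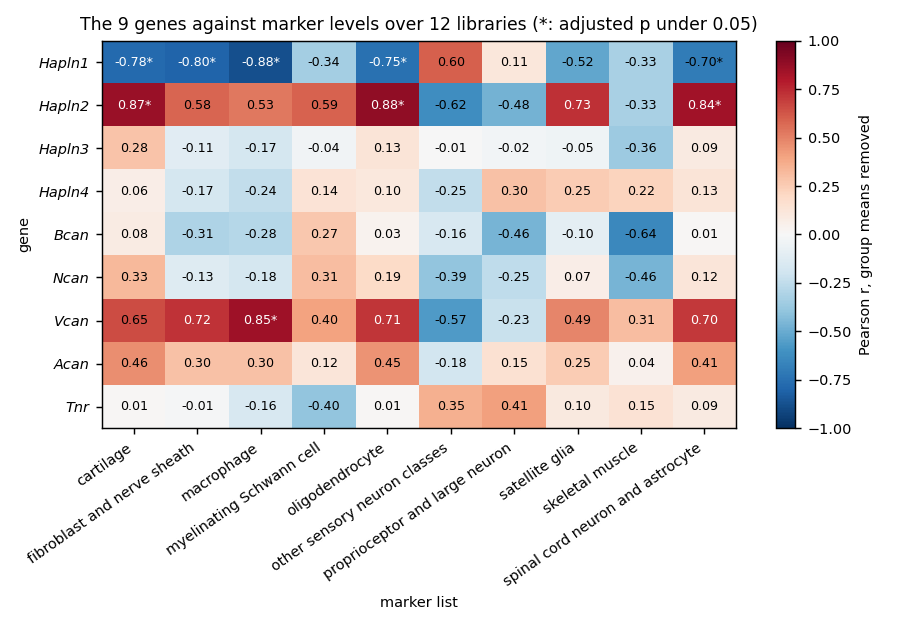
Pearson's r over 12 libraries, with group means removed, of the 9 genes (rows) with 10 marker list levels (columns); red is positive, blue negative, and an asterisk marks an adjusted p under 0.05. The asterisks lie in the rows of Hapln1 (5), Hapln2 (3) and Vcan (1), and the Hapln4 row lies between -0.25 and 0.30.

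The genes whose levels between libraries were most like each gene were taken by the highest r of group-centred log2 CPM over 12 libraries, among 13223 named genes. They are a description, since the highest of so many is high by selection. For Hapln4 these were Fbxl18, Tlr3 and Sh3rf1 (r = 0.86, 0.83 and 0.83), the lowest leading r of the set. None of them was called between the groups. For Hapln2 they were Tmem88b, Klk6 and Efnb3 (0.95, 0.94 and 0.94), for Hapln1 Rtn1, Rem2 and Tmem50b (0.96, 0.94 and 0.94), and for Hapln3 Ntn5, Hrh3 and Bag6 (0.97, 0.97 and 0.96). Control 5 held no count of Hapln3, with a group-centred level of -4.00, and r without that library was not computed for these genes. Bcan came with Dmwd, Maz and Bin1 (0.96, 0.95 and 0.95), and Ncan with Lmtk3, Zfp523 and Stx6 (0.94, 0.93 and 0.93). Vcan came with Zfp36, Ctss and Tmem252 (0.91, 0.91 and 0.91), of which Ctss is a cathepsin of macrophages, and Tnr with Aff3, Wdr6 and Lrrc41 (0.95, 0.94 and 0.94). Acan was below the level set for this comparison.

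The other genes of the perineuronal matrix were taken as 5 lists, which hold none of the 9. Of 81 symbols 80 were in the table and 74 were tested, and 2 were called, both higher in DAAO (2.7%, beside 0.753% of all genes tested). These lists too were chosen with earlier results of these data known, so nothing is read from that count. The median log2 fold change over the 74 was 0.02, beside 0.00 over all genes tested.

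Of 17 tested receptors, ligands and nodal partners 1 was called, Tnc, higher in DAAO, and 7 had an unadjusted p under 0.05 by edgeR. Of these, Tnc, Gldn and Rtn4rl1 had positive log2 fold changes, and Ptprz1, Cntn1, Nfasc and Scn8a negative ones. Tnc encodes tenascin-C, the relative of tenascin-R that binds the same lecticans, and ran from 2.01 to 4.26 CPM in controls and from 36.3 to 96.9 in DAAO. The groups were far apart, while Tnr, the tenascin of the set, overlapped. The log2 difference of Tnc was 4.63 ± 0.29 (SE; adjusted p = 3.62e-07 by edgeR's quasi-likelihood test). Ptprz1, a receptor phosphatase whose secreted form is itself a proteoglycan of nets, had a log2 fold change of -0.40 ± 0.12 and was not called (adjusted p = 0.159), although its groups did not overlap. Its control libraries ran from 68.0 to 96.0 CPM and its DAAO libraries from 46.1 to 67.7.

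Of 10 other chondroitin sulfate proteoglycans 1 was called, higher in DAAO: Cspg4, also named NG2, a proteoglycan of pericytes and oligodendrocyte precursors. It ran from 12.5 to 19.4 CPM in controls and from 19.1 to 31.3 in DAAO, so the groups met at 1 library of each. DAAO exceeded control by 0.74 ± 0.16 in log2 (SE; adjusted p = 0.0335 by edgeR's quasi-likelihood test). The call did not hold in 8 of 12 fits that left out a library, namely controls 1, 4, 5 and 6 and DAAO 1, 2, 3 and 6 (edgeR adjusted p from 0.0210 to 0.111 over the 12), nor with limma-voom (0.0509). It was also lost with the fibroblast level and with the large neuron level as a term (edgeR adjusted p = 0.059 and 0.506). In all, 11 of 24 alternatives lost the call. Spock1, a testican, had the next smallest p with -0.35 ± 0.14 (adjusted p = 0.371). It and Cspg4 were the 2 of the 10 with an unadjusted p under 0.05 by edgeR.

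None of the 17 tested genes of hyaluronan synthesis, binding and turnover was called. By edgeR 2 of them had an unadjusted p under 0.05, Stab1, a scavenger receptor (0.78 ± 0.23, adjusted p = 0.170), and Cemip, which helps to degrade hyaluronan (0.83 ± 0.29, adjusted p = 0.291). None of the 20 tested enzymes that build and sulfate chondroitin chains was called, and 0 had an unadjusted p under 0.05. Their smallest p were those of the sulfotransferase Chst15 (-0.40, adjusted p = 0.499) and the xylosyltransferase Xylt2 (0.28, adjusted p = 0.577). Of 10 tested proteases that cut lecticans and their inhibitor Timp3 none was called and 3 had an unadjusted p under 0.05, namely Mmp2 (1.07 ± 0.39, adjusted p = 0.345; called higher with the replicate block and with the oligodendrocyte level as a term), Adamts1 (0.62 ± 0.25, adjusted p = 0.399) and Adamts9 (0.58 ± 0.27, adjusted p = 0.475). DESeq2 called 4 genes of the 5 lists, Tnc and Cspg4 higher and Cntn1 and Ptprz1 lower, of which none was in these 3 lists.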

How the data were processed

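Per the file headers and values, the authors deposited 1 table of whole-number read counts per gene for 12 libraries, not normalised, with gene names, positions and gene lengths in bases. Per the submitters' processing notes, the tools included DESeq2 1.20.0, HISAT2 2.0.5 and FastQC, with mm10 and GRCm38 as builds. Which program counted, with what strand setting and annotation, was not stated in the labels or headers used here. Of 54409 genes shared with GENCODE M21, 98.3% had the same position, and the gene lengths of all 9 genes equalled the union of their exons there.

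Genes were filtered with edgeR's filterByExpr (minimum count 10, minimum total 15). Counts were scaled by TMM and tested with the robust quasi-likelihood test of edgeR 4.0.16 in R 4.3.3, 6 DAAO against 6 control, two-sided, with Benjamini-Hochberg adjustment over 17002 genes and a threshold of 0.05; "called" means past it. SE is the absolute log2 fold change over the square root of F. CPM used library totals over the genes tested times the TMM factors, save in the Xist check and where scaling by library totals is stated. Log2 CPM used a prior count of 2, and a list level is the mean of its members' centred log2 CPM. Correlations over all libraries used 100000 permutations within groups, and those without the 2 farthest libraries used fewer. Libraries are not stated to be separate animals, so p-values measure the spread between these samples; no pair was a duplicate (smallest chi-square per degree of freedom 19.6 over 66 pairs).

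The 9 genes and all lists were chosen with earlier results of these data known. Named were all 9 genes, pathway genes that passed and the 2 with the smallest p per list, the 3 most alike genes of each gene with a mean log2 CPM of at least 1, the 2 most abundant genes of marker lists, and genes that overlap. Runx3, Etv1, Whrn, Calca, Olig2, Opalin, Xist, Adamts9, Timp3, Cntn1, Nfasc, Scn8a, Gldn and Rtn4rl1 fall outside this rule and were named after their values were seen.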

Additional observations from a re-analysis of the deposited data

Results flagged for a closer look

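Of 66 groups of 6 libraries examined for a library apart from the others (each gene named by library and each marker level, by group), 2 held one; chance gives about 1 in 20. Both were control 2. Its level of other sensory neuron classes was -0.94, with the other controls from -0.02 to 0.16. Its myelinating Schwann cell level was 1.03, with the other controls from -0.18 to 0.25. The 9 genes were examined as CPM, where no library stood apart in this way. On the log2 scale with the group mean removed, which the correlations used, the libraries with no count lay far below their groups: Hapln3 was -4.00 in control 5, with the other controls from 0.31 to 1.30, and Acan was -2.47 in DAAO 5, with the other DAAO libraries from -0.17 to 1.06.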

How the results depend on the processing

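Each of the 9 genes was refitted under 24 alternatives, 12 of which left out 1 library. Of these 216 values, 203 kept direction and call, 12 changed sign and 1 lost its call, that of Hapln4 with the large neuron level as a term, where 0 of the 9 genes were called. The large neuron level did not overlap between the groups, so that term and the genotype cannot be told apart. In the other 23 alternatives Hapln4 was the gene called, from -1.21 to -1.07 without 1 library. The sign changes were in genes that were not called: Hapln2 was 0.38 with limma-voom, 0.39 with the replicate block and 0.30 without controls 2 and 6, and ran from -1.03 to 0.53 without 1 library. Hapln3 was -0.053 with the large neuron level and ran from -0.18 to 0.29 without 1 library. Vcan was -0.12 with the large neuron level and -0.041 with the fibroblast level. Tnr was -0.15 without controls 2 and 6 and ran from -0.023 to 0.26 without 1 library. Values that kept their sign and stayed uncalled could still move far: with the large neuron level as a term Hapln2 was -3.81, Bcan -0.92, Ncan -0.47, Hapln1 -0.42 and Tnr 1.04, and with limma-voom Hapln3 was 1.01. Without controls 2 and 6, Bcan was -0.13 and Ncan -0.11. The cause was not tested.

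Over all genes 86 were higher and 42 lower. These counts were 217 and 145 with DESeq2, 330 and 318 without controls 2 and 6, 3 and 5 with the large neuron level as a term, and from 47 to 204 and from 14 to 118 without 1 library. The replicate block gave 144 higher and 43 lower; equal numbers did not pair the libraries (correlations of deviations from -0.18 to 0.29, and 1 of 6 controls most like its own number). Of the 5 pathway lists 4 genes were called with DESeq2, 3 each with the replicate block and the oligodendrocyte level (both adding Mmp2, higher), 1 each with limma-voom, the large neuron level and the fibroblast level, 7 without controls 2 and 6, and from 1 to 5 without 1 library. The 5 came without control 2, with Chst15, Cntn1 and Spock1 lower; the 7 added Nfasc and Scn8a, also lower. The 9 called pairs of gene and marker level were 7 with list medians and 0 without the 2 farthest libraries. Scaling by library totals moved no level per length by more than its SD. Low counts limit Acan and Hapln3.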
